A study of Mus musculus with 2 samples.

Results

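The genes described here are 9 of the mouse Ifi200 family, also called PYHIN or HIN-200 genes: Aim2, Ifi213, Ifi209, Ifi208, Ifi207, Ifi204, Mndal, Ifi211 and Ifi203. They were found by symbol among the 32285 genes of both count matrices, and all 9 were present in both. Another 4 family genes (Ifi206, Ifi214, Ifi202b and Ifi205) serve as relatives for comparison. The libraries are 10x Genomics v3 single-cell libraries of liver non-parenchymal cells, freed with collagenase from male mice aged 5 months on chow. One library comes from Hep-ADKTg mice, in which the albumin promoter drives extra adenosine kinase (Adk) in hepatocytes, and one from Hep-ADKWT mice, the controls. The albumin promoter acts in hepatocytes, whereas the cells captured here are mostly other cells, and the number of mice behind each library is not stated (titles speak of a mouse, protocols of mice). The labels used here give no strain for either library, so genotype, genetic background, animal and preparation cannot be told apart in any difference below. The set was selected on the UMI counts of these same libraries, as a gene family with members near loss in one of them, and each group is 1 library, so levels and ratios are given as a description and no test was made.

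Ifi200 proteins carry a pyrin domain, a HIN domain that binds DNA, or both. Several act as sensors of DNA in the cytosol or nucleus: AIM2 recruits the adaptor ASC (Pycard) and caspase-1 into an inflammasome, and IFI204 is the mouse protein most often compared with human IFI16, which signals to interferon through STING. Many family genes are themselves switched on by interferons. In the liver, Kupffer cells and sinusoidal endothelial cells are known for clearing particles and macromolecules from blood.

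The family lies in one cluster on chromosome 1 (GRCm38). Aim2 is at one end, at chr1:173350879-173466040, and Ifi203 near the other, at chr1:173920407-173942672. The gene on which the comparison below turns, Ifi208, spans chr1:173673675-173698395 on the plus strand. Its closest relative by promoter among the members, Ifi213, spans chr1:173566283-173599274 on the minus strand. RefSeq (GRCm38.p6) gave a promoter for 8 of the 9 members, in 10 entries; Ifi204 had none. Over the aligned part of the 250 bases before each start, the Ifi208 promoter was identical to that of Ifi213 at 233 of 235 aligned positions (99.1%) and to that of Ifi206 at 231 of 232 (99.6%). Ifi209 was identical to Ifi214 at 94.8% of 250 aligned positions, and Ifi207 to Ifi211 at 87.4% of 247. Ifi211 and Ifi205 were identical at 92.2%, over a shorter stretch of 153 positions. The 60-base windows around the stretch that these promoters share are shown because these bases scarcely differ among Ifi208, Ifi213 and Ifi206. In sinusoidal endothelial and B cells, though not in erythroid cells, Ifi208 differed in level between the libraries far more than the other 2 of these 3 genes. Capitals mark a match to GAAA, any 2 bases and GAAA again, the core of the interferon-stimulated response element, read 5′ to 3′ on the gene's strand.
Ifi208 (chr1:173673582-173673641, plus strand): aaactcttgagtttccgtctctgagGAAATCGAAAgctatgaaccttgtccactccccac
Ifi213 (chr1:173599311-173599370, minus strand): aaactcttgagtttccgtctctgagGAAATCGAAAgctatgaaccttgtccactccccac
Ifi206 (chr1:173491324-173491383, minus strand): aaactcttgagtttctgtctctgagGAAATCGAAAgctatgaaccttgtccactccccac
Ifi209 (chr1:173630755-173630814, plus strand): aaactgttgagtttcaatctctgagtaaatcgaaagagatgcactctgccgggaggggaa
Ifi207 (chr1:173741816-173741875, minus strand): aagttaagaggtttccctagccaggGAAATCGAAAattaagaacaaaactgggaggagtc
Ifi211 (chr1:173913049-173913108, minus strand): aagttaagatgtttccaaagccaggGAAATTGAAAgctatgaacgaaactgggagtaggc
Ifi203, second start (chr1:173942493-173942552, minus strand): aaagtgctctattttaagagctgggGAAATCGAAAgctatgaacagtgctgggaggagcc

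Searched on both strands of the 250 upstream bases, this core was present in 7 of the 10 member entries and in 2.98% of 32851 RefSeq promoters. Aim2, Ifi209 and the first start of Ifi203 held no match. The Ifi208 and Ifi213 windows are the same over all 60 bases. A longer stretch is given for Ifi208 because its level differed most between the libraries.
Ifi208, upstream bases (chr1:173673415-173673654, plus strand): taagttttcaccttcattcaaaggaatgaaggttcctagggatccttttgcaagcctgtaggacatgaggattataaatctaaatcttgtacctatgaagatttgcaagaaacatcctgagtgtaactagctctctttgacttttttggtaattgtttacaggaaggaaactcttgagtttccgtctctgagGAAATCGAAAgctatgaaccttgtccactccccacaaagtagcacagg

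These libraries count the 3′ ends of transcripts, and near-identical ends cannot be told apart. Of the 60-base words in the last 500 bases of the annotated coding transcripts, 72.3% of those of Ifi211 also occur in another family gene, most often Ifi205. For Ifi209 the share was 61.5%, shared with Ifi214, so counts of Ifi211 and Ifi209 are uncertain. The share was 15.9% for Ifi213, 11.7% for Mndal, 9.98% for Ifi208 and 1.15% for Ifi207, and no word of Aim2, Ifi204 or Ifi203 was shared. The annotated span of Mndal also overlaps Ifi203 and Ifi211.

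The Hep-ADKTg library held 17462 barcodes and 96481752 unique molecular identifiers (UMIs, each a counted transcript), and the Hep-ADKWT library 15663 barcodes and 97135016 UMIs. After filtering, 14445 Hep-ADKTg cells with a median of 2783 UMIs and 12478 Hep-ADKWT cells with a median of 4807 UMIs were kept. The libraries shared 88 barcodes, 58 of them kept. Adk was at 541 CPM, the gene's UMIs over all UMIs of the class scaled to a common total, in Hep-ADKTg hepatocyte-like cells and at 475 CPM in Hep-ADKWT ones. In LSEC-like cells it was at 87.3 and 28.5 CPM. Labels and files do not say whether the transgene carries the counted end of Adk. Hepatocyte transcripts were higher in every compared class of the Hep-ADKTg library other than the hepatocyte-like cells themselves: 30 of 30 listed genes had a positive log2 ratio, with medians between 2.26 and 2.68. Their part in the results below was not tested.

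Clusters were named from marker genes, hence "-like"; LSEC stands for liver sinusoidal endothelial cell. Of 14 named classes, 6 had at least 200 cells in each library and were compared. They were LSEC-like cells (2163 Hep-ADKTg and 1647 Hep-ADKWT cells), B cell-like cells (1231 and 2046), monocyte or macrophage-like cells (324 and 328) and T, NK and ILC lymphocyte-like cells (2702 and 4601). The others were erythroid cell-like (242 and 469) and hepatocyte-like cells (4565 and 235). At a clustering resolution of 2.0, only 125 and 156 cells were named monocyte or macrophage-like. A cluster of 199 and 173 cells was then named like type 1 conventional dendritic cells, a class not named in the main clustering. The monocyte or macrophage-like class may therefore hold dendritic cells, and their part in its values was not tested. Another 2075 Hep-ADKTg and 1706 Hep-ADKWT cells stayed unnamed. Of these, 1656 and 1320 were in 1 cluster of shallow cells that were closest to hepatocytes by markers. In the 26 profiles of classes by library with at least 50 cells, the genes outside the family whose levels ran most like the summed members were Lbh (r = 0.924), Inip (0.921), Sp100 (0.915), Akr1b3 (0.912) and Casp8ap2 (0.906). These r values describe profiles that share their libraries.

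**Figure D1:**
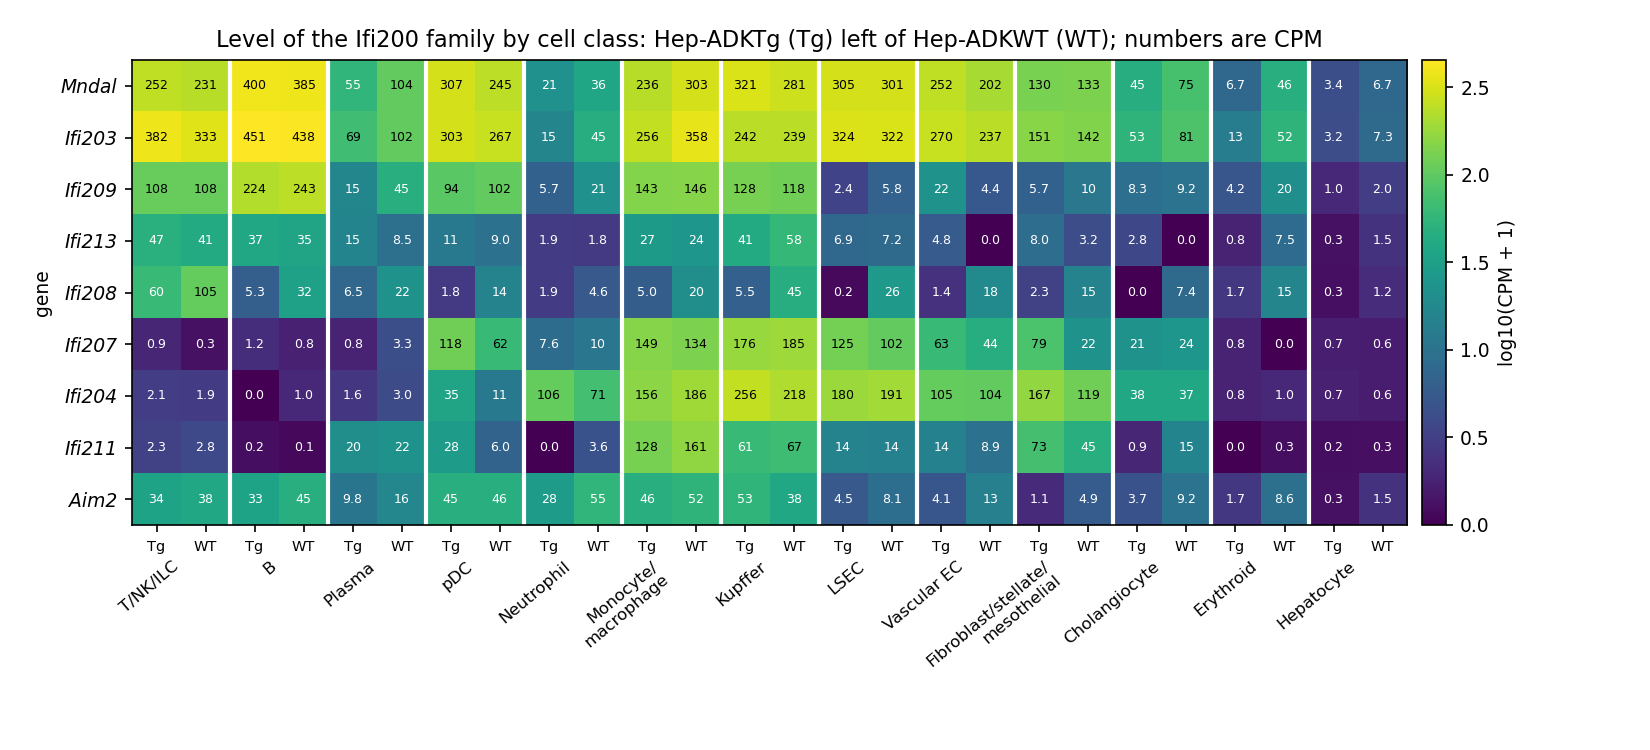
Level of each of the 9 genes (rows) in 13 cell classes (column pairs, the Hep-ADKTg library left of the Hep-ADKWT library), as CPM printed in the cell and log10(CPM + 1) by colour. Mndal and Ifi203 fill most columns. Ifi207, Ifi204 and Ifi211 fill the monocyte or macrophage-like, Kupffer cell-like and stromal ones, and Ifi207 and Ifi204 also the LSEC-like ones. In neutrophil-like columns Ifi204 is high while Ifi207 and Ifi211 are low. Ifi208 is under 10 CPM in every Hep-ADKTg column but the lymphocyte one.

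Mndal and Ifi203 were the broadly expressed members. Mndal, named for its likeness to the human myeloid cell nuclear differentiation antigen, was highest in B cell-like cells, at 400 CPM in the Hep-ADKTg library and 385 CPM in the Hep-ADKWT library. It reached 305 and 301 CPM in LSEC-like cells, and 252 and 231 CPM in T, NK and ILC lymphocyte-like cells. Ifi203, another HIN-200 gene, was also highest in B cell-like cells, with 451 and 438 CPM, and had 382 and 333 CPM in lymphocyte-like and 324 and 322 CPM in LSEC-like cells. Across the 26 profiles the log levels of the 2 genes correlated at r = 0.97. Both were low in neutrophil-like cells, Mndal at 20.9 and 36.4 CPM, and lowest in hepatocyte-like cells, Mndal at 3.35 and 6.69 CPM. When the classes of a library were ordered by Ifi203 level, the exact 95% Poisson intervals of neighbours overlapped in 6 of 12 neighbouring pairs for Hep-ADKTg and 7 of 13 for Hep-ADKWT.

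Ifi209, Ifi213 and Ifi208 were prominent in lymphoid classes. Ifi209 was highest in B cell-like cells, at 224 and 243 CPM, and stood at 108 CPM in the lymphocyte-like cells of both libraries. It was also high in monocyte or macrophage-like cells, at 143 and 146 CPM, but reached only 2.40 and 5.82 CPM in LSEC-like cells. Ifi213 was at 47.3 and 40.7 CPM in lymphocyte-like cells and 36.9 and 34.6 CPM in B cell-like cells. Kupffer cell-like cells, named for the resident macrophages of the liver, had 41.0 CPM of Ifi213 in the Hep-ADKTg library and 58.0 CPM in the Hep-ADKWT library. Their cluster had 6 enriched Kupffer markers, of which 2, C1qa and C1qb, were among its 10 leading genes. Cx3cr1 and Csf1r, markers used here for monocytes or macrophages, were leading genes too, so other macrophages may be included. All 12 neighbouring pairs in the Hep-ADKTg order of Ifi213 and 11 of the 13 in the Hep-ADKWT order overlapped in their intervals. Ifi208 was at 60.4 and 105 CPM in lymphocyte-like cells, the highest class for this gene in both libraries.

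Ifi207, Ifi204 and Ifi211 were at their highest in myeloid cells. Ifi204, the DNA sensor gene named above, was at 256 and 218 CPM in Kupffer cell-like cells, 180 and 191 CPM in LSEC-like cells and 156 and 186 CPM in monocyte or macrophage-like cells. It was the leading member in neutrophil-like cells, at 106 and 71.0 CPM, while B cell-like cells had no UMI in the Hep-ADKTg library and 1.02 CPM in the Hep-ADKWT library. Ifi207 followed Ifi204 (r = 0.866 over 26 profiles), with 176 and 185 CPM in Kupffer cell-like cells and 125 and 102 CPM in LSEC-like cells. Ifi211 was highest in monocyte or macrophage-like cells, at 128 and 161 CPM, and low in LSEC-like cells, at 14.4 and 13.8 CPM. In fibroblast, stellate or mesothelial cell-like cells, of which 131 and 151 were kept, Ifi207 was at 78.5 and 21.6 CPM and Ifi211 at 72.8 and 44.8 CPM. Of these cells, 88 and 138 were in a cluster with Upk3b among its leading genes, and 43 and 13 in one with Dpt. The mix thus differed between the libraries, and its part in these values was not tested. A cluster of 152 and 45 cells with the markers Reln and Lrat among its leading genes stayed unnamed and is not included. Plasmacytoid dendritic cell-like cells (145 and 401) had 118 and 62.4 CPM of Ifi207.

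Aim2, the inflammasome sensor, was found across immune cells at moderate levels. Kupffer cell-like cells had 53.3 and 37.9 CPM, monocyte or macrophage-like cells 46.4 and 52.1 CPM, and plasmacytoid dendritic cell-like cells 44.8 and 46.0 CPM. Neutrophil-like cells had 28.4 CPM in the Hep-ADKTg library and 54.6 CPM in the Hep-ADKWT library. LSEC-like cells had 4.47 and 8.09 CPM, and hepatocyte-like cells 0.330 and 1.46 CPM. Every neighbouring pair in the Aim2 order overlapped, 12 of 12 for Hep-ADKTg and 13 of 13 for Hep-ADKWT, which leaves the order of neighbours uncertain, although overlap of intervals does not show that 2 levels are equal.

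No member was without UMIs over all kept cells of either library, whereas Ifi202b had none in either. Ifi208 came closest to loss. It had 859 UMIs (11.1 CPM) over all kept Hep-ADKTg cells and 4200 UMIs (51.7 CPM) over all kept Hep-ADKWT cells. In LSEC-like cells it had 1 UMI in the Hep-ADKTg library, which is 0.160 CPM, and 186 UMIs in the Hep-ADKWT library, which is 26.4 CPM. The log2 ratio was -7.37, with an exact conditional 95% interval of -12.68 to -4.87. The ratio was smaller with doublets kept (-3.80), at a clustering resolution of 0.5 (-4.72) and with family genes in the clustering (-5.12). This interval and those below cover counting error only, not differences between animals or preparations.

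Elsewhere the same gene was low in the Hep-ADKTg library by less. B cell-like cells had 22 UMIs (5.34 CPM) of Ifi208 in the Hep-ADKTg library and 252 UMIs (32.2 CPM) in the Hep-ADKWT library, a log2 ratio of -2.59 (-3.29 to -1.96), which was -1.82 at resolution 2.0, -1.72 with at most 10% mitochondrial UMIs and -3.18 with each library clustered alone. Monocyte or macrophage-like cells had 16 UMIs (5.05 CPM) and 83 UMIs (19.7 CPM), a log2 ratio of -1.96 (-2.83 to -1.18). T, NK and ILC lymphocyte-like cells held the most: 728 UMIs (60.4 CPM) in the Hep-ADKTg library and 2972 UMIs (105 CPM) in the Hep-ADKWT library, a log2 ratio of -0.79 (-0.91 to -0.68). Among the classes too small to compare, Ifi208 had 4 and 20 UMIs in Kupffer cell-like cells and 2 and 62 UMIs in plasmacytoid dendritic cell-like cells. It had 8 and 206 UMIs in plasma cell-like cells, 2 and 27 in fibroblast, stellate or mesothelial cell-like cells and 2 and 8 in vascular endothelial cell-like cells. The Ifi208 level was lower in the Hep-ADKTg library in all of these. Levels of T and NK cell markers in these small classes are given below, and the part of lymphocyte transcripts in them was not tested.

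**Figure D2:**
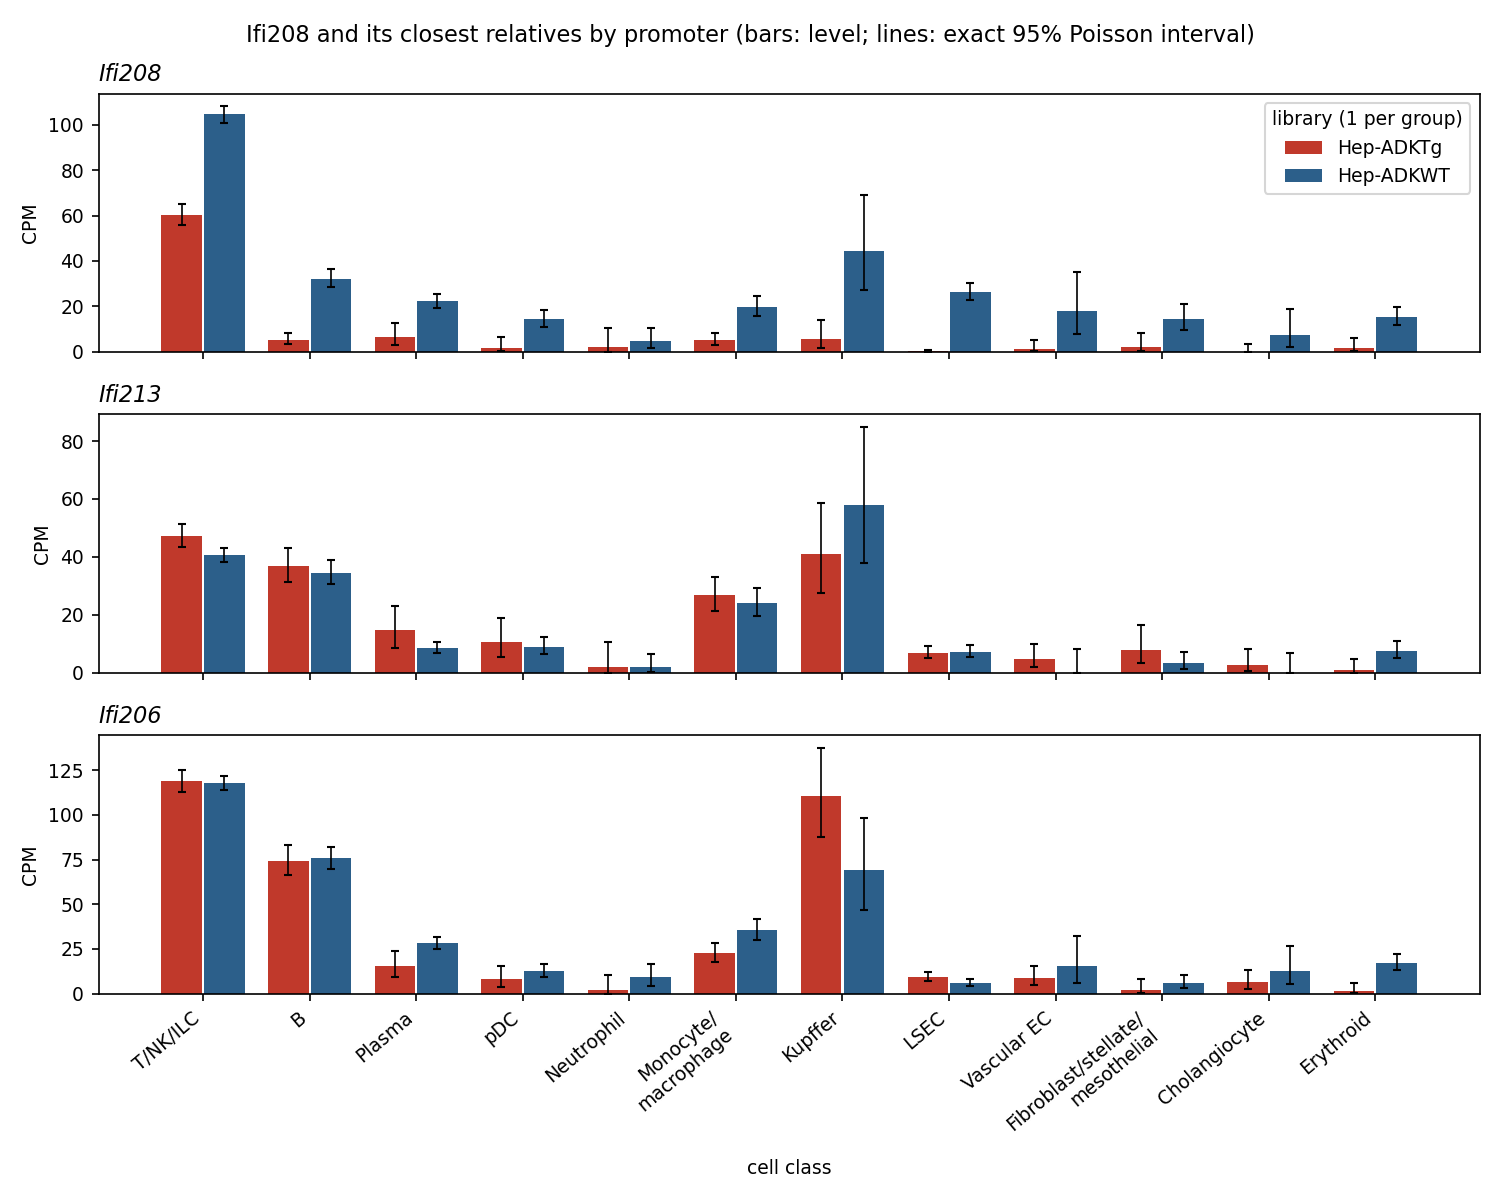
Level (CPM, bars from 0) of Ifi208, Ifi213 and Ifi206 in 12 cell classes of the Hep-ADKTg (red, left) and Hep-ADKWT (blue, right) libraries, with exact 95% Poisson intervals as lines. Ifi208 bars are shorter in red throughout, 0.160 against 26.4 CPM in LSEC-like cells, while Ifi213 there is at 6.87 and 7.24 CPM.

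The relatives with nearly the same reference promoter were closer to equal in LSEC-like, B cell-like, monocyte or macrophage-like and lymphocyte-like cells. Ifi213 was at 6.87 CPM in Hep-ADKTg and 7.24 CPM in Hep-ADKWT LSEC-like cells, a log2 ratio of -0.08 (-0.70 to 0.54). In B cell-like cells its ratio was 0.09 (-0.21 to 0.38), in monocyte or macrophage-like cells 0.16 (-0.27 to 0.59) and in lymphocyte-like cells 0.22 (0.07 to 0.36). Ifi206 was at 9.26 and 6.25 CPM in LSEC-like cells, 74.2 and 76.0 CPM in B cell-like cells and 119 and 118 CPM in lymphocyte-like cells. It was lower in Hep-ADKTg monocyte or macrophage-like cells, at 22.7 CPM against 35.5 CPM in Hep-ADKWT ones. In erythroid cell-like cells the relatives were as low in the Hep-ADKTg library as Ifi208. The log2 ratios there were -3.20 for Ifi208 (2 and 59 UMIs), -3.17 for Ifi213 (1 and 29 UMIs) and -3.38 for Ifi206 (2 and 67 UMIs).

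By share of cells, Ifi208 was seen in 1 of 2163 Hep-ADKTg LSEC-like cells (0.0462%, exact 95% Clopper-Pearson interval 0.00117 to 0.257%) and in 156 of 1647 Hep-ADKWT ones (9.47%, 8.10 to 11.0%). Median depth was 2589 and 4514 UMIs. With every cell thinned to 1000 UMIs, the shares were 0 of 1679 Hep-ADKTg cells and 2.17% of 1337 Hep-ADKWT cells. In neutrophil-like cells, where the gene is low, the unthinned shares were 0.508% at a median of 2279 UMIs and 1.55% at 2703 UMIs. In lymphocyte-like cells 567 of 2702 Hep-ADKTg and 1902 of 4601 Hep-ADKWT cells held the gene, at medians of 4202 and 5528 UMIs, and the shares after thinning were 5.28% and 10.2%. The share in Hep-ADKWT LSEC-like cells was above that of Hep-ADKWT neutrophil-like cells (2.17% and 0 after thinning), while in the Hep-ADKTg library each of the 2 shares rests on 1 cell. In monocyte or macrophage-like cells the shares were 3.09% and 16.5%, at medians of 9304 and 12201.5 UMIs, but 0.627% and 0.623% after thinning, so at that depth no difference in share was detectable there.

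Different clusters made up most of a class in the 2 libraries, so the comparison was also read within clusters. Cluster 4 held 1348 of the Hep-ADKTg and 76 of the Hep-ADKWT LSEC-like cells, and cluster 8 held 37 and 1102. In cluster 4, Ifi208 was at 0.190 CPM (1 UMI) in Hep-ADKTg cells and 41.5 CPM (15 UMIs) in Hep-ADKWT cells. Cluster 5, with 1223 and 157 B cell-like cells, had 5.20 and 24.3 CPM, and cluster 3 held 8 Hep-ADKTg and 1889 Hep-ADKWT cells. Cluster 2, with 1710 and 219 T cell-like cells, had 66.2 and 92.6 CPM. The difference was present within each of these shared clusters. T cell-like clusters as a whole had 62.6 and 99.7 CPM, and NK or ILC1-like clusters, with 169 and 1846 cells, 26.9 and 111 CPM. The NK or ILC1-like clusters are not the same mix in the 2 libraries, since cluster 7 gave 2 Hep-ADKTg and 1146 Hep-ADKWT cells. At resolution 2.0, a single cluster of 463 Hep-ADKTg and 90 Hep-ADKWT cells was named NK or ILC1-like. The part of this mix in the NK or ILC1-like values was not tested.

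Transcripts of lymphocytes in other classes were set beside these values, since Ifi208 is highest in lymphocytes. The summed level of 20 T and NK cell markers in LSEC-like cells was 0.556% of that in lymphocyte-like cells of the Hep-ADKTg library, where 17 of the markers were detected. In the Hep-ADKWT library it was 2.50%, with 19 detected. Ifi208 in LSEC-like cells was 0.265% of its lymphocyte level in the Hep-ADKTg library and 25.3% in the Hep-ADKWT library. In B cell-like cells the markers stood at 1.51 and 1.54%, and Ifi208 at 8.84 and 30.8%. Monocyte or macrophage-like cells had markers at 7.57 and 16.4% and Ifi208 at 8.36 and 18.8%, close to each other in both libraries. Plasma cell-like cells had markers at 10.4 and 20.6% and Ifi208 at 10.8 and 21.2%. Kupffer cell-like cells had markers at 7.28 and 19.5% and Ifi208 at 9.06 and 42.6%. In plasmacytoid dendritic cell-like cells the values were 5.66 and 9.51%, and 2.97 and 13.7%. In fibroblast, stellate or mesothelial cell-like cells they were 2.82 and 4.05%, and 3.77 and 13.9%. In vascular endothelial cell-like cells they were 2.50 and 0.305%, and 2.28 and 17.0%. Without the cells that held any T or NK marker UMI, the Ifi208 log2 ratio was -7.21 in LSEC-like cells and -2.61 in B cell-like cells. In monocyte or macrophage-like cells Ifi208 then had under 50 UMIs and gave no value, so the part of lymphocyte transcripts there was not tested.

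**Figure D3:**
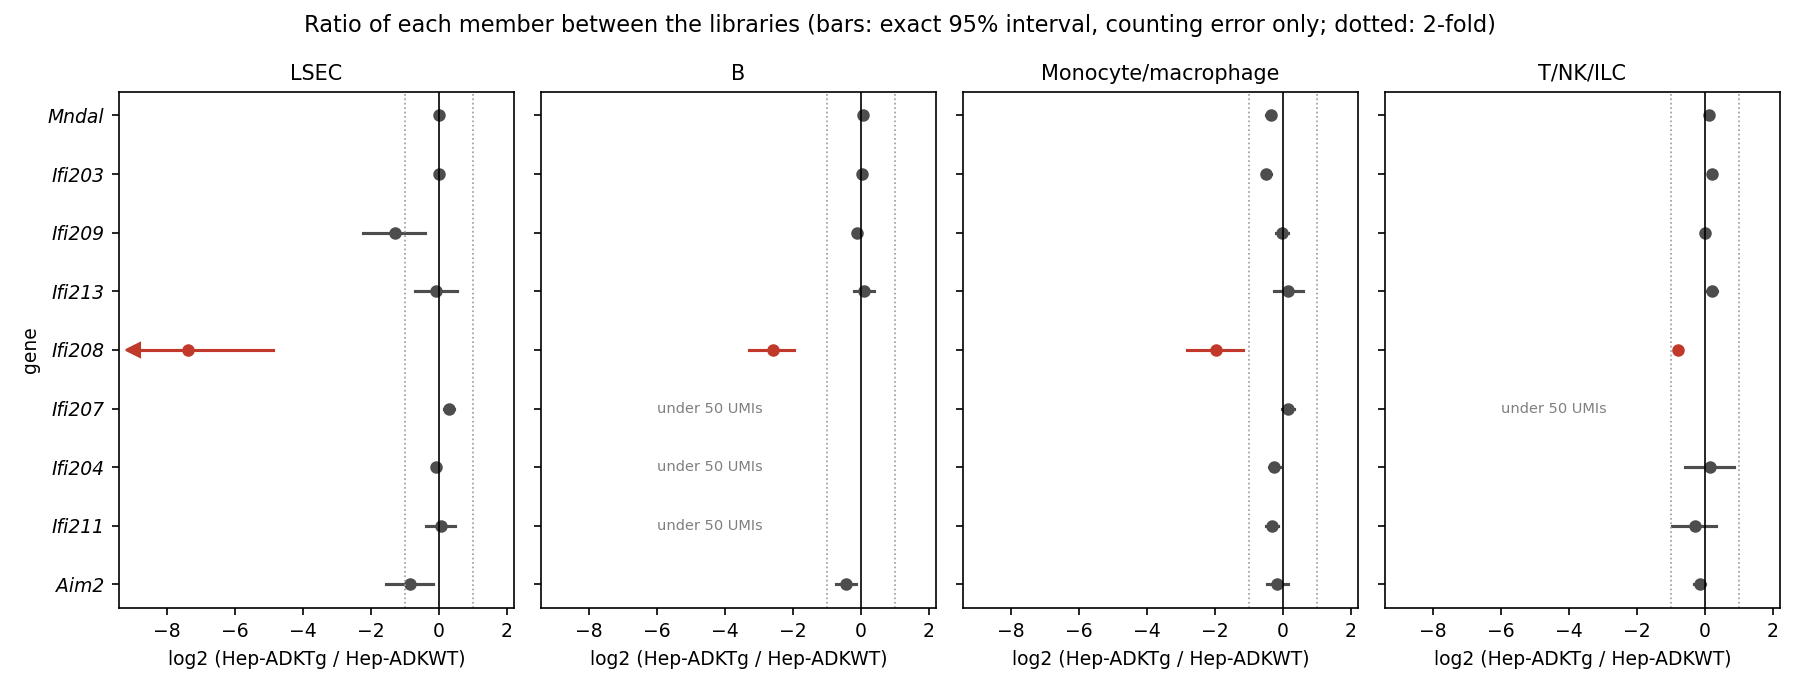
Log2 ratio of CPM, Hep-ADKTg over Hep-ADKWT, for each gene (rows) in 4 compared classes (panels); points are ratios, lines exact 95% intervals, and dotted lines mark 2-fold. Ifi208 (red) lies left of 0 in each panel, at -7.37, -2.59, -1.96 and -0.79, with the lower end of its LSEC-like interval beyond the axis (arrow).

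The other members were next compared class by class, counting those with at least 50 UMIs and at least a 2-fold ratio. In LSEC-like cells 2 of 9 members were at least 2-fold lower in the Hep-ADKTg library, Ifi208 and Ifi209, against 2.08% of the 10632 genes with at least 50 UMIs, and 0 were higher (5.53% of genes). Ifi209 rests on 15 and 41 UMIs, with a log2 ratio of -1.28 (-2.24 to -0.40), but it was -0.02 with family genes in the clustering and 0.725 at resolution 0.5. The count of 2 fell to 1 under 5 alternatives and to 0 after thinning. Aim2 had 28 and 57 UMIs, a ratio of -0.86 (-1.56 to -0.18). The abundant members were close to equal: Ifi203 at 0.01 (-0.08 to 0.09), Mndal at 0.02 (-0.07 to 0.11) and Ifi204 at -0.08 (-0.20 to 0.03). Ifi207 was higher in the Hep-ADKTg library, at 125 against 102 CPM (0.29, 0.14 to 0.44). Summed over the 9 members the level was 961 CPM in Hep-ADKTg and 977 CPM in Hep-ADKWT cells, and the median log2 ratio of the members was -0.08, beside -0.13 for all genes.

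In B cell-like cells Ifi208 was the single member of 6 counted that was at least 2-fold lower (1.27% of genes), and 0 were higher (6.6% of genes). Ifi209, Mndal and Ifi203 had ratios between -0.12 and 0.05, and Aim2 -0.43 (-0.72 to -0.14). Ifi207, Ifi204 and Ifi211 had under 50 UMIs there. The median was -0.04 for the members and -0.15 for all genes.

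In T, NK and ILC lymphocyte-like cells 0 of 8 members were past 2-fold in either direction, against 1.08% of genes lower and 6.86% higher. Ifi203 was at 382 CPM in Hep-ADKTg and 333 CPM in Hep-ADKWT cells (0.20, 0.15 to 0.25) and Mndal at 252 and 231 CPM (0.13, 0.06 to 0.19). The median was 0.06 for the members and -0.10 for all genes.

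Monocyte or macrophage-like cells had 1 of 9 members at least 2-fold lower, Ifi208 (2.44% of genes), and 0 higher (3.76% of genes). Here several abundant members were lower by less than 2-fold. Ifi203 was at 256 CPM in Hep-ADKTg cells and 358 CPM in Hep-ADKWT cells (-0.48, -0.61 to -0.36). Mndal was at 236 and 303 CPM (-0.36, -0.49 to -0.23), Ifi211 at 128 and 161 CPM (-0.33, -0.51 to -0.15) and Ifi204 at 156 and 186 CPM (-0.25, -0.41 to -0.09). The T and NK markers given above were also lower in the Hep-ADKTg library. Hep-ADKWT lymphocyte-like cells had 333 CPM of Ifi203, 231 of Mndal, 2.85 of Ifi211 and 1.86 of Ifi204. Leaving out cells with a T or NK marker UMI removed 40.1% of Hep-ADKTg and 53.7% of Hep-ADKWT cells. The ratio of Ifi203 was then -0.23, and those of Mndal (0.02) and Ifi204 (0.02) were near 0. Ifi211 ranged between -0.576 and -0.245 over 11 alternatives, this one included. The part of lymphocyte transcripts was not tested. The 9 members summed to 1147 and 1385 CPM.

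Erythroid cell-like cells had all 4 counted members at least 2-fold lower, in a class where 47.7% of genes were lower too and 10.5% higher. T and NK markers there stood at 2.11 and 11.6% of the lymphocyte level. Of 2 counted members in hepatocyte-like cells, Ifi203 was 2-fold lower, at 3.21 and 7.27 CPM (3.05% of genes lower and 2.14% higher). With doublets kept its log2 ratio was -0.735 and no longer past 2-fold. T and NK markers in this class stood at 0.479 and 1.10% of the lymphocyte level, and their part was not tested.

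A small lymphocyte cluster, led by interferon-response genes such as Ifit1, Cxcl10 and Isg15, gave another view of the family. It held 32 Hep-ADKTg and 17 Hep-ADKWT cells, and the family genes had been left out of the clustering. Within each library these cells were set beside the other T cell-like cells, as a description. The cluster had 8 enriched T cell markers but none among its 10 leading genes. With each library clustered alone, a Hep-ADKWT cluster of 39 cells led by the same kind of genes was named B cell-like, so the cells may not all be T cells. Mndal, Ifi203 and Ifi209 are higher in B cell-like than in lymphocyte-like cells, and Ifi204 is highest in Kupffer cell-like cells. The part of B cells or myeloid cells in these folds was not tested. Ifi203 was at 1259 against 369 CPM in the Hep-ADKTg library, 3.41-fold higher (2.97 to 3.90), and 4.31-fold higher (3.63 to 5.07) in the Hep-ADKWT library. Mndal was 2.91-fold and 4.92-fold higher, Ifi209 3.47-fold and 6.47-fold, and Ifi213 3.51-fold and 5.08-fold. Ifi208 was 2.72-fold higher (1.82 to 3.92) in the Hep-ADKTg library, at 30 UMIs, and 5.32-fold higher (3.99 to 6.96) in the Hep-ADKWT library, at 55 UMIs. Ifi204, almost silent in other T cell-like cells, had 3 UMIs in these Hep-ADKTg cells and 25 UMIs in these Hep-ADKWT cells, against 18 and 11 UMIs in all the others. Aim2 was near 1-fold, at 1.16 (0.462 to 2.41) and 1.09 (0.296 to 2.80), from 7 and 4 UMIs.

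**Figure D4:**
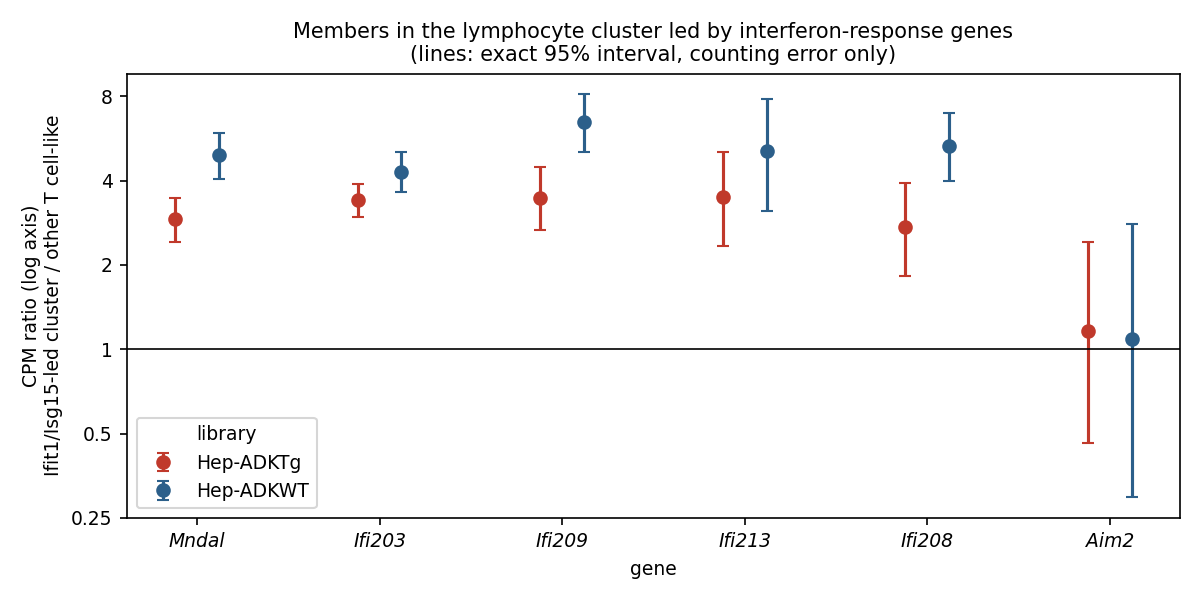
CPM ratio (log axis) of 6 genes between the lymphocyte cluster led by interferon-response genes and the other T cell-like cells of the same library, in the Hep-ADKTg (red, 32 cells) and Hep-ADKWT (blue, 17 cells) libraries, with exact 95% intervals. The intervals of all but Aim2 lie above 1 in both libraries, with Ifi208 at 2.72 and 5.32.

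Genes that work with the family were read from lists. Of the cytosolic DNA sensing list (STING, cGAS, nucleases and their signalling partners), 0 of 20 counted genes in LSEC-like cells were past 2-fold, and the median was -0.07. Of all genes in LSEC-like cells 2.08% were lower and 5.53% higher, so the count of 0 was near those shares. STING itself, listed as Tmem173, had a log2 ratio of -0.54 (-0.80 to -0.29) there and -0.53 (-0.77 to -0.28) in B cell-like cells. Beside the same shares of all genes, the inflammasome list had 0 of 11 genes lower and 1 higher in LSEC-like cells, with Pycard at -0.47 and Casp1 at -0.41, and a median of -0.29. In monocyte or macrophage-like cells its median was -0.24, with Il1b, the cytokine that caspase-1 matures, at -0.79 (-1.09 to -0.48). Beside these stand medians of all genes of -0.13 and -0.08.

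Interferon-stimulated genes had 1 of 34 lower and 3 higher in LSEC-like cells, with a median of 0.16, beside 2.08% of all genes lower and 5.53% higher. Gbp3 and Ifit1 were 2 of the higher ones, at 1.11 (0.71 to 1.52) and 1.01 (0.67 to 1.36). In monocyte or macrophage-like cells 4 of 35 were lower and 0 higher, with a median of -0.03, beside 2.44% and 3.76% of all genes. The 4 were Gbp2 (-1.69), Gbp3 (-1.10), Ifi47 (-1.07) and Igtp (-1.004), GTPases of the interferon response. There Socs3, an inhibitor of cytokine signalling, was at -1.45 and the transcription factor gene Irf1 at -0.81. In B cell-like cells 1 of 29 was lower and 2 higher (1.27% and 6.6% of all genes), among them the GTPase gene Iigp1 at 2.12 (1.68 to 2.56). In lymphocyte-like cells 0 of 34 were lower and 2 higher (1.08% and 6.86% of all genes), with a median of 0.16. The counts in B cell-like and lymphocyte-like cells were near those shares. In hepatocyte-like cells 2 of 28 were lower and 6 higher, with a median of 0.30, beside 3.05% and 2.14% of all genes. Among the higher were Ifit1 (3.15, from 283 and 3 UMIs) and Isg15 (1.57, from 725 and 23 UMIs). In erythroid cell-like cells 7 of 11 were lower and 1 higher, beside 47.7% and 10.5% of all genes. The receptor and signalling list had 0 of 16 genes past 2-fold in LSEC-like, B cell-like and lymphocyte-like cells alike. These counts too were near the shares of all genes given above for the 3 classes.

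Genes around the family were looked at within 2 Mb of its outermost members. Over all kept cells other than hepatocyte-like ones, 48 neighbours had at least 50 UMIs. This pool includes the unnamed cells, and with them the shallow cells closest to hepatocytes. Of these, 2 were at least 2-fold lower in the Hep-ADKTg library, Fcer1a (-1.996) and Gm37065 (-1.02), beside 2.17% of all genes. There 6 were higher (10.2% of all genes), among them Apcs (3.05), Crp (2.39), Tstd1 (1.75), Cadm3 (1.30) and Ackr1 (1.13). Apcs and Crp encode pentraxins made by hepatocytes. In the same cells Ifi208 was at 20.7 and 54.0 CPM (-1.38, -1.49 to -1.28), and the flanking members Ifi209 and Ifi207 at -0.23 and 0.93. These values pool classes whose shares of cells differ between the libraries; within LSEC-like and monocyte or macrophage-like cells Ifi207 was at 0.29 and 0.14. In LSEC-like cells 3 of 27 neighbours were lower, Cd48 (-4.10, 3 and 58 UMIs), Slamf7 (-2.70, 7 and 51 UMIs) and Arhgap30 (-1.09), genes of blood cells, beside 2.08% of all genes. There 4 of 27 were higher, Apcs (3.32), Crp (2.98), Kmo (2.65) and Tstd1 (1.46), beside 5.53% of all genes. The T and NK markers of LSEC-like cells given above were lower in the Hep-ADKTg library like the first 3 of these, and hepatocyte transcripts were higher like the other 4; their part was not tested.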

How the data were processed

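Liver non-parenchymal cells were profiled in 1 Hep-ADKTg and 1 Hep-ADKWT library. The deposited matrices hold raw UMI counts per gene and barcode, made by the authors with Cell Ranger 6.1.2 on GRCm38/mm10, per the submitters' processing notes; the matrix headers name an earlier release. SoupX and Harmony are named in the series text, but the deposited counts are whole numbers and were treated as uncorrected for free RNA. No source used here names the gene annotation; 32158 of 32285 identifiers were found in GENCODE M21.

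Barcodes with at least 500 UMIs, 200 genes and at most 20% mitochondrial UMIs were kept. Cells over a Scrublet score of 0.2 (scanpy 1.11.5) were removed: 408 Hep-ADKTg and 483 Hep-ADKWT cells. Clustering used 2000 variable genes without the Ifi200 family, 30 principal components, 15 neighbours and Leiden resolution 1.0 (leidenalg 0.10.2). Clusters were named from markers with at least 3 enriched, by a rule set after the data were seen; the authors' own annotation was not used here. UMIs were summed per class and library and scaled to CPM. CPM have exact Poisson, ratios exact conditional binomial and shares Clopper-Pearson intervals at 95%, which cover counting error only. Cells are not replicates, so no test was made. Ratios were computed on simulated counts first and recovered. Genes under 50 UMIs over both libraries were not counted. Intervals are for UMIs, so depth sets their width.

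The members, markers and lists were chosen with earlier results of these data known. Named genes are all members, up to 4 genes per list with the largest ratio at 200 UMIs or more, 5 genes by likeness of log2(CPM + 10) and neighbours past 2-fold, of which 1 is not reported here. Python 3.11.15, R 4.3.3, edgeR 4.0.16 and DESeq2 1.42.0 (the last 2 for scaling factors) were used. Alternatives covered clustering, doublets, filters, scaling, weighting, thinning and fold.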

Additional observations from a re-analysis of the deposited data

How the results depend on the processing

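Ifi208 was lower in the Hep-ADKTg library in every compared class and under every alternative that gave it at least 50 UMIs. Its log2 ratio ran between -7.46 and -3.80 in LSEC-like cells (the smallest difference with doublets kept), -3.18 and -1.72 in B cell-like, -2.16 and -1.88 in monocyte or macrophage-like and -0.95 and -0.67 in lymphocyte-like cells. Ifi209 in LSEC-like cells turned to 0.725 at resolution 0.5, against -1.28, and Mndal in hepatocyte-like cells to 0.79 as a mean over cells, against -0.998. The number of members at least 2-fold lower in LSEC-like cells, 2, was 1 with family genes in the clustering, with each library clustered alone, at resolution 0.5, at most 10% mitochondrial UMIs and without cells holding a T or NK marker UMI (an alternative chosen after seeing the data). With cells thinned to 1000 UMIs, which leaves fewer members at 50 UMIs, it was 0 in LSEC-like, monocyte or macrophage-like, erythroid and hepatocyte-like cells. Without marker-holding cells it was 0 in monocyte or macrophage-like and erythroid cells. Of all genes in LSEC-like cells, between 0.903% and 2.44% were lower under the alternatives named for a count of 1. After thinning, 1.02% of genes were lower in LSEC-like, 1.87% in monocyte or macrophage-like, 35.3% in erythroid and 4.98% in hepatocyte-like cells. Without marker-holding cells 1.59% were lower in monocyte or macrophage-like and 3.71% in erythroid cells. In hepatocyte-like cells the count of lower members was 2 at resolution 0.5, at 1.5-fold and with CPM without hepatocyte, haemoglobin and mitochondrial genes, 3 at resolution 2.0, 5 with no minimum of UMIs and 0 with doublets kept. Of all genes there, 3.19%, 8.38% and 3.38% were lower under the first 3 of these, 5.18% at resolution 2.0 and 2.75% with doublets kept. With no minimum, 2 members were higher in erythroid and 1 in lymphocyte-like cells. For that alternative the shares cover only genes with at least 50 UMIs: 3.05% lower in hepatocyte-like, 10.5% higher in erythroid and 6.86% higher in lymphocyte-like cells. At 1.5-fold 1 member was lower in lymphocyte-like cells (5.34% of genes). At that fold 8 neighbours were lower and 10 higher, for which no share of all genes was computed.

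List medians moved as follows. With each library clustered alone, B cell-like interferon signalling was at -0.19 and interferon-stimulated genes at -0.45, and erythroid DNA sensing at -0.034. The erythroid inflammasome median was -0.455 with CPM without those genes, -0.15 with TMM factors and -0.11 with DESeq2 size factors. DNA sensing in lymphocyte-like cells was 0.061 and 0.069 with these 2 scalings. LSEC-like inflammasome genes were at -0.54 after thinning. In hepatocyte-like cells DNA sensing was -0.25 at resolution 2.0, -0.28 as a mean over cells and 0.73 after thinning, interferon signalling -0.53 as a mean over cells, and interferon-stimulated genes 0.14 at resolution 2.0. For all of these the cause was not tested beyond the alternative's own construction. Hepatocyte-like cells had under 200 cells in a library in 3 alternatives and monocyte or macrophage-like cells under 200 cells in 1, which gave no value. Of single-member ratios 370 of 416 stayed within their counting interval. TMM and DESeq2 factors move the median of all genes to about 0 from -0.15 (B cell-like), -0.13 (LSEC-like) and -0.93 (erythroid), as DESeq2's shifts show. No paired analysis was possible because each group has 1 library. Depth limits low members: with 1 UMI, Ifi208 in Hep-ADKTg LSEC-like cells could be anywhere up to 0.890 CPM.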
